A study of Mus musculus with 4 samples.

Results

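Pericytes of the embryonic mouse heart were described here as the cells chosen by a marker gate on single-cell counts, 709 of the 21035 barcodes that held at least 500 genes. A barcode was taken as a pericyte when it held at least 1 UMI (a counted mRNA molecule) of Kcnj8 and UMIs of 2 or more of Rgs5, Cspg4, Pdgfrb and Notch3, when its muscle score (the mean of ln(1 + UMIs per 10000) of Tnnt2, Myh6, Ttn, Actn2 and Ryr2) was under 1.5, and when it held UMIs of fewer than 3 of the 7 endothelial genes Pecam1, Cdh5, Emcn, Egfl7, Cldn5, Kdr and Tie1. The cells came from wild-type CD1 mice at embryonic day 16.5, from 4 microdissected regions that hold the cardiac conduction system, with 1 10x Genomics 3' library per region. The regions were those of the sinoatrial node (SAN), of the atrioventricular node and His bundle (AVN/His), and of the bundle branches and Purkinje fibers (BB/PF) on the left and on the right side. How many embryos each library pooled is not stated, so the 4 libraries stood in for replicates. Each p-value reflects only how far the difference between the classes compared varied among the libraries that entered the test.

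Pericytes are mural cells that sit within the basement membrane of capillaries and small vessels. They are recruited by endothelial platelet-derived growth factor through the receptor Pdgfrb and kept in a mural state by Notch signaling. In the heart they share much of their gene expression with arterial smooth muscle cells and, as mesenchymal derivatives of the epicardium, with fibroblasts. Kcnj8 encodes the pore (Kir6.1) and Abcc9 the sulfonylurea receptor (SUR2) of an ATP-sensitive potassium channel, the textbook channel of pericytes.

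The 4 libraries held 5010 to 6342 barcodes and 49328589 to 58029660 UMIs, and 38 to 54 barcodes were shared between any pair of libraries. The pericytes numbered 157 in the SAN region (2.65% of the kept cells; 95% Clopper-Pearson interval 2.25 to 3.09), 163 in the AVN/His region (2.89%; 2.47 to 3.36), 117 in the BB/PF left region (2.29%; 1.90 to 2.74) and 272 in the BB/PF right region (6.24%; 5.54 to 7.004). The share was thus highest in the BB/PF right library, and the intervals cover counting error only. The median pericyte held 8284, 6902, 7720 and 7192 UMIs in the 4 libraries in that order. Among the 709 pericytes, 9 had a Scrublet doublet score above 0.2, 14 had over 1% hemoglobin UMIs and 9 also held at least 2 Myh11 UMIs and a UMI of Cnn1 or Lmod1.

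The genes of the gate are given as a description, since they chose the cells. Kcnj8 stood at 302, 549, 537 and 584 CPM (the gene's UMIs divided by all UMIs of the summed cells, times 1000000) in the pericytes of the SAN, AVN/His, BB/PF left and BB/PF right libraries, and Rgs5, a GTPase activator of G proteins, at 857, 1643, 1886 and 1602 CPM. Pdgfrb stood at 311, 474, 409 and 473 CPM and Notch3 at 170, 189, 163 and 198 CPM. Cspg4, the proteoglycan NG2, was the sparsest of the 5 genes at 37.2, 54.1, 70.1 and 64.6 CPM, and 35.7% of the pericytes held a UMI of it, against 91.3% for Rgs5, 95.2% for Pdgfrb and 72.9% for Notch3. Of the 709 cells, 200 held 2, 344 held 3 and 165 held all 4 of the mural genes, and 162 passed with a single Kcnj8 UMI.

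The label was then described with genes that the gate did not use. The macrophages, endothelial cells, smooth muscle cells and fibroblasts set beside the pericytes were chosen to hold no Kcnj8 UMI. A gene that goes with Kcnj8, such as its channel partner Abcc9, is therefore not independent of the gates. The same holds for the identity list in the comparisons below. Abcc9 was found in 82.4% of the pericytes (584 of 709) and the mitochondrial protein gene Higd1b in 61.4% (435 of 709), at a median depth of 7476 UMIs. In macrophages, taken as background for free RNA, Abcc9 was found in 2.21% and Higd1b in 0 of 272 cells, which allows a share of up to 1.35%, at a median depth of 5916.5 UMIs. The summed level of 18 endothelial markers outside the gate was 512 to 768 CPM in the pericytes, against 6101 to 13263 CPM in endothelial cells. In macrophages that sum was 118 to 222 CPM, so the pericytes stood above this background. The 14 Schwann and neuron markers did so too, at 69.0 to 81.9 CPM in the pericytes, against 0 to 12.4 CPM in macrophages. The 17 cardiomyocyte markers summed to 829 to 2264 CPM in the pericytes, against 743 to 1877 CPM in macrophages. For 10 macrophage markers the sum was 6.09 to 65.4 CPM in the pericytes, against 7071 to 10218 CPM in macrophages.

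Fibroblast markers came closer to the level of their own class than the endothelial and macrophage markers did. The 16 fibroblast markers outside the gates summed to 10399 CPM in the pericytes of the SAN library, and to 4830, 1998 and 3447 CPM in those of the AVN/His, BB/PF left and BB/PF right libraries, against 18893, 14600, 9101 and 11665 CPM in the fibroblasts of the same libraries. A UMI of Tcf21, a fibroblast transcription factor, was held by 110 of 157 pericytes in the SAN region (70.1%), by 36.8% in the AVN/His region, by 30.8% in the BB/PF left region and by 44.9% in the BB/PF right region, against 1.84% of macrophages. The SAN library therefore stood apart: its pericytes held the lowest Kcnj8, Rgs5, Abcc9 and Higd1b and the highest fibroblast sum of the 4. Values without that library, and without pericytes that held a Tcf21 UMI (an alternative added after the data were seen), are given below beside named genes whose call they changed and beside some of the lists. Leaving out cells by a fibroblast gene selects against other fibroblast RNA, so a fall of fibroblast genes there is not independent of the split. It also left 47 of the 157 SAN pericytes. The part of fibroblast RNA in the results was not tested.

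**Figure D1:**
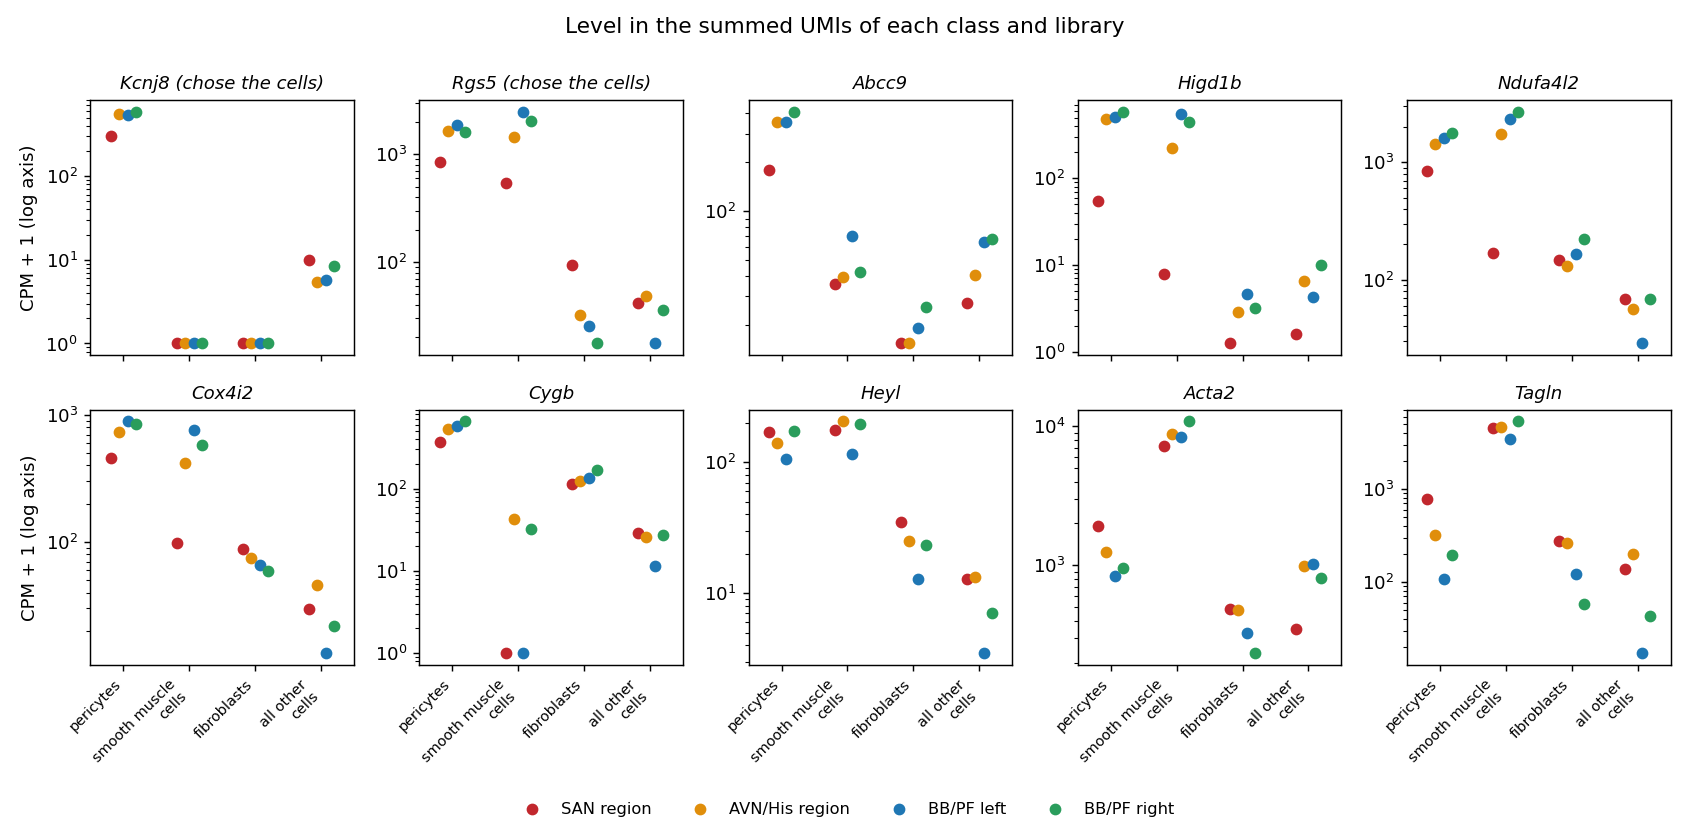
Level (CPM + 1, log axis) of 10 genes in the summed UMIs of pericytes, smooth muscle cells, fibroblasts and all other cells, 1 point per library. Abcc9 sat between 177 and 407 CPM in pericytes, above every other class, whereas Higd1b, Ndufa4l2 and Cox4i2 overlapped between pericytes and smooth muscle cells, and Acta2 and Tagln were higher in smooth muscle cells.

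Both channel genes lie next to each other. On chromosome 6 of GRCm38, in the GENCODE annotation, Kcnj8 (ENSMUSG00000030247) spans 142564837 to 142571614 and Abcc9 (ENSMUSG00000030249) 142587862 to 142702315, both on the minus strand, with 16247 bases between them. The RefSeq promoters of both, and of the collectin gene Colec11 on chromosome 12, held the 6-letter RBPJ core TGGGAA or its reverse complement TTCCCA, the core bound by the DNA-binding factor of the Notch pathway; the core is printed in capitals. The windows (GRCm38.p6, 250 bases before to 50 after the start, 5′ to 3′ on the gene's strand, here minus for all 3) lie at chr6:142571565-142571864 for Kcnj8, chr6:142702225-142702524 for Abcc9 and chr12:28623281-28623580 for Colec11. They are shown because the gate used Kcnj8 and the Notch receptor Notch3, and because Abcc9 and Colec11 are identity genes that were higher in pericytes in each comparison below.
Kcnj8: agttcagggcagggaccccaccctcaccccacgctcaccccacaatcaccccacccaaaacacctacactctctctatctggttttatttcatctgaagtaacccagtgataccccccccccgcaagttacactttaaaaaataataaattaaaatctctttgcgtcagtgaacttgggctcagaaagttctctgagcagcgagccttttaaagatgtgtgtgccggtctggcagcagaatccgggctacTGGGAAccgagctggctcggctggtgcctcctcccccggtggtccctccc
Abcc9: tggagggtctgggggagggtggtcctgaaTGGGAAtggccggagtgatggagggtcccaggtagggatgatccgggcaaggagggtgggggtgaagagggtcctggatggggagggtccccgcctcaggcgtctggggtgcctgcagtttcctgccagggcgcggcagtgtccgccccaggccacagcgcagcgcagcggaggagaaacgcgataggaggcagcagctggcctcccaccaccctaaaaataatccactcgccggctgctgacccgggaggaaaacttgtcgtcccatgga
Colec11: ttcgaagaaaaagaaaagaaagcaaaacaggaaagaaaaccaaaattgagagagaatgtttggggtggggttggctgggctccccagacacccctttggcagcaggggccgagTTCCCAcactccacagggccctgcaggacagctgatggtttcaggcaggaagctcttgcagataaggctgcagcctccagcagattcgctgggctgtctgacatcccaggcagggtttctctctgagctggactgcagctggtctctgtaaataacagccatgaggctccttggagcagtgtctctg
Of 34 genes of a pericyte identity list, 21 matched a RefSeq promoter and 12 of these held the RBPJ core in any of their promoters (57.1%). Of all 32851 promoters of the same length, 25.6% held it. The list share counts genes and the other counts single promoters, so a gene with several promoters has more chances of a match. The shares are thus not of like units. In the Notch pathway list it was 6 of 19 matched genes (31.6%). A match is a description of letters and not of binding.

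Cells just inside and just outside the Kcnj8 and mural gene thresholds differed in genes the gate did not use, which is given with no test. Pericytes with exactly 1 Kcnj8 UMI (162 cells) held Abcc9 at 184 CPM and Higd1b at 212 CPM, and the 863 cells that missed the gate for want of a Kcnj8 UMI held them at 46.5 and 70.6 CPM. Pericytes with exactly 2 of the 4 mural genes (200 cells) held Higd1b at 260 CPM and Dcn, a fibroblast proteoglycan, at 1296 CPM, whereas the 113 cells with exactly 1 mural gene held 32.6 and 2988 CPM. At the endothelial limit both sides were close for Abcc9 and Higd1b. Abcc9 was at 372 CPM in the 65 pericytes with 2 endothelial genes and at 383 CPM in the 10 cells with 3, and Higd1b at 565 and 580 CPM. At the muscle limit only 6 pericytes scored 1 to 1.5 and 13 cells scored 1.5 to 2. In that order they held Abcc9 at 220 and 246 CPM and Higd1b at 22.0 and 246 CPM.

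The closest mural class was taken first. Smooth muscle cells (92 cells without a Kcnj8 UMI, with at least 2 Myh11 UMIs and a UMI of Cnn1 or Lmod1) numbered 21, 39 and 26 in the SAN, AVN/His and BB/PF right libraries. The BB/PF left library held 6 of them, below the minimum of 10, and did not enter. In pericytes the channel subunit Abcc9 and genes such as Cygb, Dlk1 and Mest were higher, the contractile genes were lower, and most pericyte markers tested passed in neither direction. Summed UMIs of each class in each library were tested with edgeR (quasi-likelihood F-test, library as blocking factor). Of 7437 genes, 199 were higher in pericytes (2.68%) and 345 lower (4.64%) at an adjusted p (Benjamini-Hochberg) under 0.05. The genes of the gates were not tested here or below.

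Of 34 pericyte identity genes, 26 were tested, 5 were higher in pericytes and 5 lower, and their median log2 fold change was 0.01, against 0.01 over all genes tested. Abcc9 was at 177, 351 and 407 CPM in the pericytes of the SAN, AVN/His and BB/PF right libraries, against 34.9, 38.1 and 41.3 CPM in their smooth muscle cells, so that the classes did not overlap (log2 fold change 3.06, SE 0.26, edgeR adjusted p = 1.13e-04). Colec11, a secreted collectin, was at 136, 384 and 385 CPM in pericytes, against 13.9, 41.6 and 93.0 CPM in smooth muscle cells (2.68, SE 0.27, edgeR adjusted p = 2.56e-04). The transcription factor gene Ebf1 (1.25, SE 0.16) and the alternative cytochrome c oxidase subunit gene Cox4i2 (1.04, SE 0.24) were higher in 3 of 3 libraries too. Cox4i2 lost the call without the BB/PF right library (edgeR adjusted p = 0.0570), without the library block (edgeR adjusted p = 0.376) and in DESeq2 (adjusted p = 0.0647). Ifitm1, an interferon-induced membrane protein gene, stood at 42.0, 18.0 and 24.2 CPM in pericytes and at 0 in smooth muscle cells, at least 5.79-fold higher against a floor of 3 counts over the group (edgeR adjusted p = 0.0145, and 0.0659 without the BB/PF right library).

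Several genes often used as pericyte markers did not pass the test between these classes. Higd1b was at 53.0, 482 and 582 CPM in pericytes, against 6.97, 225 and 449 CPM in smooth muscle cells, higher in 3 of 3 libraries and short of the threshold (0.87, SE 0.25, edgeR adjusted p = 0.0647). Without the SAN library Higd1b passed, with a smaller fold change (0.77, edgeR adjusted p = 0.0207), and also without pericytes that held a Tcf21 UMI (1.42, edgeR adjusted p = 0.0167). Further settings in which it passed include at least 2 Kcnj8 UMIs (1.04, edgeR adjusted p = 0.0344) and 3 or more mural genes (1.14, edgeR adjusted p = 0.0349). Ndufa4l2, a hypoxia-induced paralog of a respiratory chain subunit, was at 841, 1442 and 1792 CPM, against 167, 1742 and 2697 CPM (0.27, SE 0.40), and without the SAN library it was lower in pericytes (-0.38, edgeR adjusted p = 0.0395). Both classes held little Higd1b in the SAN library, and the ranges of both genes overlapped between the classes. The Notch target gene Heyl (-0.29, SE 0.19) and the forkhead gene Foxs1 (-0.34, SE 0.23) did not pass either. Vtn, which encodes vitronectin, and Steap4, a metalloreductase gene, were too sparse for the test and at 0 in the smooth muscle cells of every library. Without the SAN library 32 identity genes were tested and 11 were higher and 5 lower. Without pericytes that held a Tcf21 UMI, 5 were higher and 3 lower of 23. Over all genes the counts moved too, to 363 higher and 451 lower without the SAN library, and to 131 and 217 without those pericytes. List counts at these settings, here and below, are to be read beside these totals, since the genes tested changed as well.

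The contractile genes moved one way. Of 30 genes 26 were tested, 0 were higher and 20 lower in pericytes (76.9%, against 4.64% of all genes lower), with a median log2 fold change of -1.63. Tagln, which encodes transgelin, was at 772, 319 and 193 CPM in pericytes, against 4567, 4645 and 5311 CPM in smooth muscle cells (-3.76, SE 0.33, edgeR adjusted p = 1.28e-04). Acta2, smooth muscle α-actin, was at 1922, 1249 and 953 CPM, against 7168, 8764 and 10823 CPM (-2.76, SE 0.24, edgeR adjusted p = 1.24e-04). Myl9, a regulatory light chain of smooth muscle myosin, was at 442, 365 and 311 CPM, against 2196, 3731 and 4334 CPM (-3.18, SE 0.24). The classes did not overlap for these 3 genes, and pericytes still held Acta2 at 953 CPM or more in each of these libraries. Actg2, a γ-actin (-3.68, SE 0.35), the actin-associated Synpo2 (-3.18, SE 0.26), the kinase gene Mylk (-2.36, SE 0.23) and the essential light chain gene Myl6 (-1.40, SE 0.14) were lower in 3 of 3 libraries. With the SAN library left out, 0 of 27 contractile genes were higher and 23 lower, and without pericytes that held a Tcf21 UMI it was 0 and 18 of 24. The gate for smooth muscle cells used Myh11, Cnn1 and Lmod1, genes of the same program, so the direction of the list is not independent of it.

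The promoters of Myl9 and Myl6 are shown as examples of the contractile list, at chr2:156775214-156775513 (plus strand) and chr10:128492960-128493259 (minus strand), since both hold a CArG box, the site of serum response factor (searched on both strands), printed in capitals. A second RefSeq promoter of Myl6 is not shown.
Myl9: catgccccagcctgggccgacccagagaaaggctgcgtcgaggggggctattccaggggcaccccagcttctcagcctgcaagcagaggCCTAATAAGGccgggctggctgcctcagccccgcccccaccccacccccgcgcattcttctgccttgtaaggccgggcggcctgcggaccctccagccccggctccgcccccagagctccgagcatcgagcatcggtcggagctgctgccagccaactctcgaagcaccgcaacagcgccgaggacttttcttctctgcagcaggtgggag
Myl6: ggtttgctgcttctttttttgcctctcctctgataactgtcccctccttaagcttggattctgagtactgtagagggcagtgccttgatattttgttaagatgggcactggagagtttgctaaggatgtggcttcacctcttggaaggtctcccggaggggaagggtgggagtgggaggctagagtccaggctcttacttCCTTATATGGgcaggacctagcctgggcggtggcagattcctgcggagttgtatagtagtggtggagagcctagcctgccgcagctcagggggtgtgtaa
A CArG box was present in 4 of 25 matched contractile genes (16%), against 1.63% of all promoters, again genes beside single promoters. Other promoters of the list are not shown.

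Over all genes tested at 20 CPM or more, the 10 of lowest p among those higher in pericytes were Dlk1, Mest, Cygb, Abcc9, Cpa1, Pid1, Colec11, Cotl1, Nostrin and Rem1. Cygb, a heme protein of the globin family, was at 371, 533 and 653 CPM in pericytes, against 0, 41.6 and 31.0 CPM in smooth muscle cells (4.28, SE 0.35, edgeR adjusted p = 8.81e-05). Cpa1, a carboxypeptidase gene best known from the pancreas, was at 73.7, 209 and 374 CPM, against 0, 10.4 and 0 CPM (5.56, SE 0.51, edgeR adjusted p = 1.44e-04). The imprinted genes Dlk1 (3.38, SE 0.24) and Mest (2.86, SE 0.21), the endothelial nitric oxide synthase trafficking gene Nostrin (4.36, SE 0.46), the small GTPase gene Rem1 (2.40, SE 0.26), Pid1 (4.79, SE 0.47) and the actin-binding Cotl1 (2.74, SE 0.28) were higher in 3 of 3 libraries. Among the genes lower in pericytes, Cav1, the coat protein of caveolae, was at 62.7, 75.9 and 68.8 CPM, against 844, 731 and 961 CPM (-3.62, SE 0.19, edgeR adjusted p = 1.72e-05), the lowest p of all. Ramp1, part of the receptor of the vasodilator CGRP, was at 3.44, 18.0 and 4.19 CPM, against 139, 281 and 217 CPM (-4.75, SE 0.34). Map3k7cl (-3.73, SE 0.21) and the small heat shock gene Hspb2 (-3.38, SE 0.23) were lower in 3 of 3 libraries as well.

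Most channel and vasoactive genes tested passed in neither direction, 10 of 15 and 16 of 21, with median log2 fold changes of -0.09 and -0.42. Of 15 channel genes tested 1 was higher (Abcc9) and 4 were lower in pericytes, among them Kcnab1, a subunit of voltage-gated potassium channels (-3.83, SE 0.35), Kcna5 (-2.29, SE 0.46) and Kcnmb1, the β1 subunit of the large-conductance calcium-activated potassium channel (-2.24, SE 0.41). Of 21 vasoactive and cyclic nucleotide genes 1 was higher, Ramp2, an adrenomedullin receptor subunit (2.27, SE 0.58), and 4 were lower, among them Ramp1, the thromboxane receptor gene Tbxa2r (-2.31, SE 0.45) and the phosphodiesterase gene Pde3a (-1.29, SE 0.20). In the platelet-derived growth factor, angiopoietin and VEGF list 3 of 17 were higher and 5 lower. Angpt2, an antagonist of the Tie2 receptor (-2.33, SE 0.50), the ligand Pdgfa (-2.11, SE 0.22) and the chemokine Cxcl12 (-2.03, SE 0.22) were lower in pericytes, and the growth factors Igf1 (2.01, SE 0.49) and Ptn (1.96, SE 0.34) higher. With edgeR, Kcna5, Ramp2, Tbxa2r and Igf1 lost the call without the BB/PF right library (adjusted p = 0.0560, 0.155, 0.0721 and 0.106 in that order), and Kcnmb1, Tbxa2r, Angpt2 and Igf1 lost it without the AVN/His library (adjusted p = 0.0600, 0.140, 0.386 and 0.118). Without the library block Kcna5, Kcnmb1, Igf1 and Ptn lost it (edgeR adjusted p = 0.0599, 0.0639, 0.169 and 0.138). Igf1 lost it in DESeq2 too (adjusted p = 0.0883), with 3 or more mural genes asked for (edgeR adjusted p = 0.118) and with no endothelial UMI (edgeR adjusted p = 0.0567). Ramp2 also lost it without pericytes that held a Tcf21 UMI (edgeR adjusted p = 0.209), which left 0 higher and 3 lower of 16 vasoactive genes, with 3 or more mural genes asked for (edgeR adjusted p = 0.130), without the library block (edgeR adjusted p = 0.203) and in DESeq2 (adjusted p = 0.181).

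The signaling and matrix lists split. Of 15 Notch pathway genes 3 were higher in pericytes, the ligand-like Dlk1, Snai1 (2.47, SE 0.54) and the target Hey1 (2.19, SE 0.54), and 3 were lower, the ligand Jag1 (-2.29, SE 0.25), the feedback inhibitor Nrarp (-1.43, SE 0.37) and the target Hey2 (-1.17, SE 0.26). Without pericytes that held a Tcf21 UMI 1 was higher and 2 lower of 12, and Snai1 (edgeR adjusted p = 0.0828) and Nrarp (edgeR adjusted p = 0.192) lost the call. With edgeR, Snai1, Nrarp and Hey2 lost the call without the BB/PF right library (adjusted p = 0.0887, 0.346 and 0.120), Nrarp, Hey2 and Hey1 without the AVN/His library (0.303, 0.118 and 0.0947) and Hey1 without the SAN library (0.117). Hey1, Nrarp and Hey2 lost it in DESeq2 (adjusted p = 0.103, 0.125 and 0.0936) and with 3 or more mural genes asked for (edgeR adjusted p = 0.0607, 0.104 and 0.0527). Without the library block Hey1 and Nrarp lost it (edgeR adjusted p = 0.139 and 0.159), as did Hey1 with no endothelial UMI (edgeR adjusted p = 0.0616). Of 22 TGF-β and BMP genes 3 were higher and 3 lower, with Tgfb3 lower (-2.90, SE 0.32), and without pericytes that held a Tcf21 UMI 0 were higher and 4 lower of 13. The basement membrane list had 2 higher and 3 lower of 18: the laminin chain Lama4 was higher in pericytes (2.29, SE 0.36), the chain Lama5 lower (-4.22, SE 0.46), and the collagen IV genes Col4a1 (0.20, SE 0.15) and Col4a2 (0.22, SE 0.16) did not pass. Of 43 interstitial matrix genes 8 were higher and 6 lower. The elastic fiber genes Fbln5 (-4.19, SE 0.49) and Lox (-3.07, SE 0.27) were lower, and so was Eln (-3.28, SE 0.71), which stood at 495, 514 and 33.5 CPM in pericytes against 14265, 5272 and 20.7 CPM in smooth muscle cells, lower in 2 of 3 libraries. Eln lost the call in DESeq2 (adjusted p = 0.310), and Eln, Fbln5 and Lox lost it in edgeR without the library block (adjusted p = 0.183, 0.203 and 0.102). Postn (2.06, SE 0.35) and Col3a1 (1.78, SE 0.33), which fibroblasts hold at high levels, were higher in pericytes, and neither passed without pericytes that held a Tcf21 UMI (edgeR adjusted p = 0.0704 and 0.157). Of 14 fibroblast markers tested 4 were higher and 1 lower, and without pericytes that held a Tcf21 UMI 0 were higher and 1 lower of 11; the interstitial matrix list then had 3 higher and 6 lower of 35.

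Among 47 mesenchymal transcription factors 4 were higher, led by the zinc finger gene Hic1 (4.12, SE 0.49) and the T-box gene Tbx20 (2.04, SE 0.35), and 5 were lower, led by the forkhead gene Foxc1 (-3.23, SE 0.55). Without pericytes that held a Tcf21 UMI Tbx20 did not pass (1.25, edgeR adjusted p = 0.0686), and 4 of 32 were higher and 2 lower. Of 30 integrin and junction genes 3 were higher and 9 lower, of 25 oxygen-linked and mitochondrial genes 2 were higher and 1 lower, and of 30 cell cycle genes 2 were higher and 0 lower. The call counts depended on the libraries: without the SAN library 363 genes were higher, without the BB/PF right library 82 were higher and 178 lower, and without the AVN/His library 221 were lower. Erythroid markers summed to 5007, 2583 and 10425 CPM in these pericytes, against 29856, 630 and 925 CPM in the smooth muscle cells, and their part in the results was not tested. With 2 residual degrees of freedom, a gene that did not pass is not shown to be equal. A fit that leaves out a library has fewer still, so a call gained or lost there rests on even less.

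Fibroblasts (2459 cells without a Kcnj8 UMI, with a Tcf21 UMI and UMIs of 2 or more of Pdgfra, Dcn and Lum) entered from all 4 libraries, with 1017, 858, 206 and 378 cells. In pericytes 26 of 30 identity genes, 15 of 25 contractile genes and 19 of 30 cell cycle genes tested were higher, and 32 of 46 interstitial matrix genes and all 15 fibroblast markers tested were lower. Of 9627 genes tested with the same edgeR model, 989 were higher in pericytes (10.3%) and 1107 lower (11.5%). The pericyte sums are the same ones as above, so the comparisons share them.

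Of the 30 identity genes tested, 26 were higher and 1 lower (the basement membrane gene Nid1), with a median log2 fold change of 2.73, against -0.01 over all genes. Higd1b was at 53.0, 482, 514 and 582 CPM in the pericytes of the SAN, AVN/His, BB/PF left and BB/PF right libraries, against 0.24, 1.89, 3.61 and 2.17 CPM in the fibroblasts (7.78, SE 0.15, edgeR adjusted p = 5.54e-08). Abcc9 was at 177, 351, 353 and 407 CPM, against 14.4, 14.4, 18.1 and 24.7 CPM (4.12, SE 0.17, edgeR adjusted p = 1.02e-05). The classes did not overlap for either, and the SAN library was the lowest of the 4 for Higd1b in both classes. Gm13889 (5.37, SE 0.39), Colec11 (5.13, SE 0.40), Steap4 (4.91, SE 0.42), Cox4i2 (3.32, SE 0.24), Ndufa4l2 (3.06, SE 0.16), the endothelin receptor gene Ednra (3.32, SE 0.37), the G protein regulator Rgs4 (4.13, SE 0.51) and Foxs1 (2.82, SE 0.37) were higher in 4 of 4 libraries. Without the SAN library 29 of 32 were higher and 1 lower, and without pericytes that held a Tcf21 UMI 25 of 29 were higher and 1 lower. Over all genes these settings gave 1131 higher and 1160 lower, and 963 higher and 1110 lower, in that order.

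The fibroblast-side lists were lower, a direction that is not independent of the gate for fibroblasts (Tcf21, Pdgfra, Dcn and Lum). All 15 fibroblast markers tested were lower in pericytes, with a median log2 fold change of -1.78 and, without pericytes that held a Tcf21 UMI, of -2.52. Col1a1 was at 2055, 636, 256 and 467 CPM in pericytes, against 4668, 3081, 1701 and 2804 CPM in fibroblasts (-2.19, SE 0.22, edgeR adjusted p = 3.07e-04). The microfibril gene Mfap5 (-3.57, SE 0.18) and the small proteoglycan gene Ogn (-2.85, SE 0.19) were lower in 4 of 4 libraries. Of 46 interstitial matrix genes 1 was higher, the metalloproteinase inhibitor Timp3 (0.53, SE 0.14), and 32 were lower (median -1.08); Timp3 lost the call without the BB/PF right library (edgeR adjusted p = 0.0706) and without pericytes that held a Tcf21 UMI (0.35, edgeR adjusted p = 0.124), when 0 were higher and 31 lower of 45. The epicardial transcription factor Wt1 was lower (-2.97, SE 0.26), and so were the growth factor gene Ptn (-1.90, SE 0.11), the amino acid transporter gene Slc38a5 (-4.17, SE 0.30) and Clec3b (-4.41, SE 0.32).

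The basement membrane list split by gene. Of 17 genes 3 were higher in pericytes, the collagen IV chains Col4a1 at 729, 915, 696 and 854 CPM in pericytes, against 275, 280, 306 and 376 CPM in fibroblasts (1.37, SE 0.10, edgeR adjusted p = 7.05e-05), and Col4a2 (1.30, SE 0.10), and agrin, Agrn, while 10 were lower, among them Col15a1 (-2.12, SE 0.38), which encodes collagen XV, and Smoc2 (-1.88, SE 0.25). Of 25 TGF-β and BMP genes 1 was higher (the ligand Tgfb1, 1.04, SE 0.13) and 13 were lower, among them Bmp4 (-2.14, SE 0.33) and the BMP target Id2 (-1.32, SE 0.13). In the platelet-derived growth factor, angiopoietin and VEGF list 5 of 25 were higher, among them Pdgfa (2.71, SE 0.35), the VEGF receptor Flt1 (2.19, SE 0.43) and the coreceptor Nrp1 (1.62, SE 0.16), and 11 lower, among them adrenomedullin, Adm (-2.36, SE 0.35).

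Of 17 Notch pathway genes 7 were higher and 3 lower. Nrarp was at 116, 144, 184 and 185 CPM in pericytes, against 9.66, 4.64, 4.65 and 1.90 CPM in fibroblasts (4.70, SE 0.34, edgeR adjusted p = 6.80e-05). The hairy-related repressors Heyl (2.65, SE 0.15) and Hey2 (2.35, SE 0.18) were higher in 4 of 4 libraries, whereas Hey1 (0.13, SE 0.14) did not pass and was higher in 2 of 4. Without pericytes that held a Tcf21 UMI Hey1 was lower in pericytes (-0.61, edgeR adjusted p = 0.0329). Rbpj itself was lower in pericytes (-0.71, SE 0.16), and lost the call without the BB/PF right library (edgeR adjusted p = 0.0929). Of 25 contractile genes 15 were higher and 1 lower, among the higher the kinase gene Mylk (2.91, SE 0.29), Acta2 (1.69, SE 0.12) and the Ras-like gene Rasl12 (3.37, SE 0.28). Tagln was at 772, 319, 107 and 193 CPM in pericytes, against 275, 261, 121 and 56.7 CPM in fibroblasts, and did not pass (0.88, SE 0.27, edgeR adjusted p = 0.0521). Tagln passed without the BB/PF left library (1.14, edgeR adjusted p = 0.0140) and without pericytes that held a Tcf21 UMI (1.22, edgeR adjusted p = 0.0166). It also passed in DESeq2 (0.85, adjusted p = 0.0323) and in further settings, among them no endothelial UMI (1.24, edgeR adjusted p = 0.0109).

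Vasoactive and cyclic nucleotide genes had 13 of 29 higher and 4 lower. Beside Rgs4 and Ednra, the purinergic receptor P2ry14 (3.19, SE 0.34) and the guanylate cyclase subunit Gucy1a3 (2.02, SE 0.43) were higher. Of 18 channel genes 5 were higher, among them Abcc9 and the chloride channel Ano1 (2.62, SE 0.60), and 4 were lower. With edgeR, Ano1 lost the call without the AVN/His library (adjusted p = 0.0751) or the BB/PF right library (0.0757), and Gucy1a3 without the BB/PF right library (0.0647). Of 49 transcription factors 16 were higher, led by Nr2f1 (3.46, SE 0.46), Epas1, the hypoxia-inducible factor HIF-2α (3.41, SE 0.23), Nr1h3 (3.16, SE 0.40) and Tbx2 (2.93, SE 0.23), and 18 were lower. Of 36 integrin and junction genes 10 were higher, led by the gap junction gene Gja4 (4.37, SE 0.37), the integrin Itga7 (3.27, SE 0.56), the laminin receptor Itga6 (2.60, SE 0.13) and the ephrin Efnb2 (2.46, SE 0.30), and 13 were lower. Of 27 oxygen-linked and mitochondrial genes 10 were higher and 4 lower. The endothelial adhesion gene Esam was higher in pericytes (4.54, SE 0.44), at 62.7, 95.5, 128 and 130 CPM, against 7.58, 3.19, 0.52 and 1.90 CPM, and Apold1, an endothelial stress gene, was higher too (5.42, SE 0.19); among the 9 endothelial markers tested 5 were higher and 3 lower, while the sum of 18 was 512 to 768 CPM in pericytes and 529 to 961 CPM in fibroblasts.

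Of 30 cell cycle genes 19 were higher in pericytes and 0 lower, with a median log2 fold change of 0.51. Ccnd1, the cyclin D1 gene, was at 135, 335, 546 and 379 CPM in pericytes, against 32.3, 135, 209 and 203 CPM in fibroblasts (1.39, SE 0.16), and Mki67 (0.73, SE 0.12) and Top2a (0.66, SE 0.08) were higher in 4 of 4 libraries. Without pericytes that held a Tcf21 UMI 12 were higher and 0 lower, and Mki67 did not pass (0.52, edgeR adjusted p = 0.0579). Cells with UMIs of at least 3 of a set of mitotic genes made up 40.2% of pericytes (285 of 709; 95% Clopper-Pearson interval 36.6 to 43.9) and 27.04% of fibroblasts (665 of 2459; 25.3 to 28.8). With every cell thinned to 3000 UMIs the shares were 32.9% and 21.2%, against 21.0% of macrophages. By library the cells with such UMIs made up 40.8%, 39.9% and 36.8% of pericytes and 23.1%, 24.2% and 34.9% of fibroblasts in the SAN, AVN/His and BB/PF right libraries, and it was 47.9% and 43.7% in the BB/PF left library; the intervals overlapped in both BB/PF libraries. Leaving out the AVN/His library left 539 genes higher and 669 lower, and leaving out the BB/PF right library 575 higher and 639 lower.

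**Figure D2:**
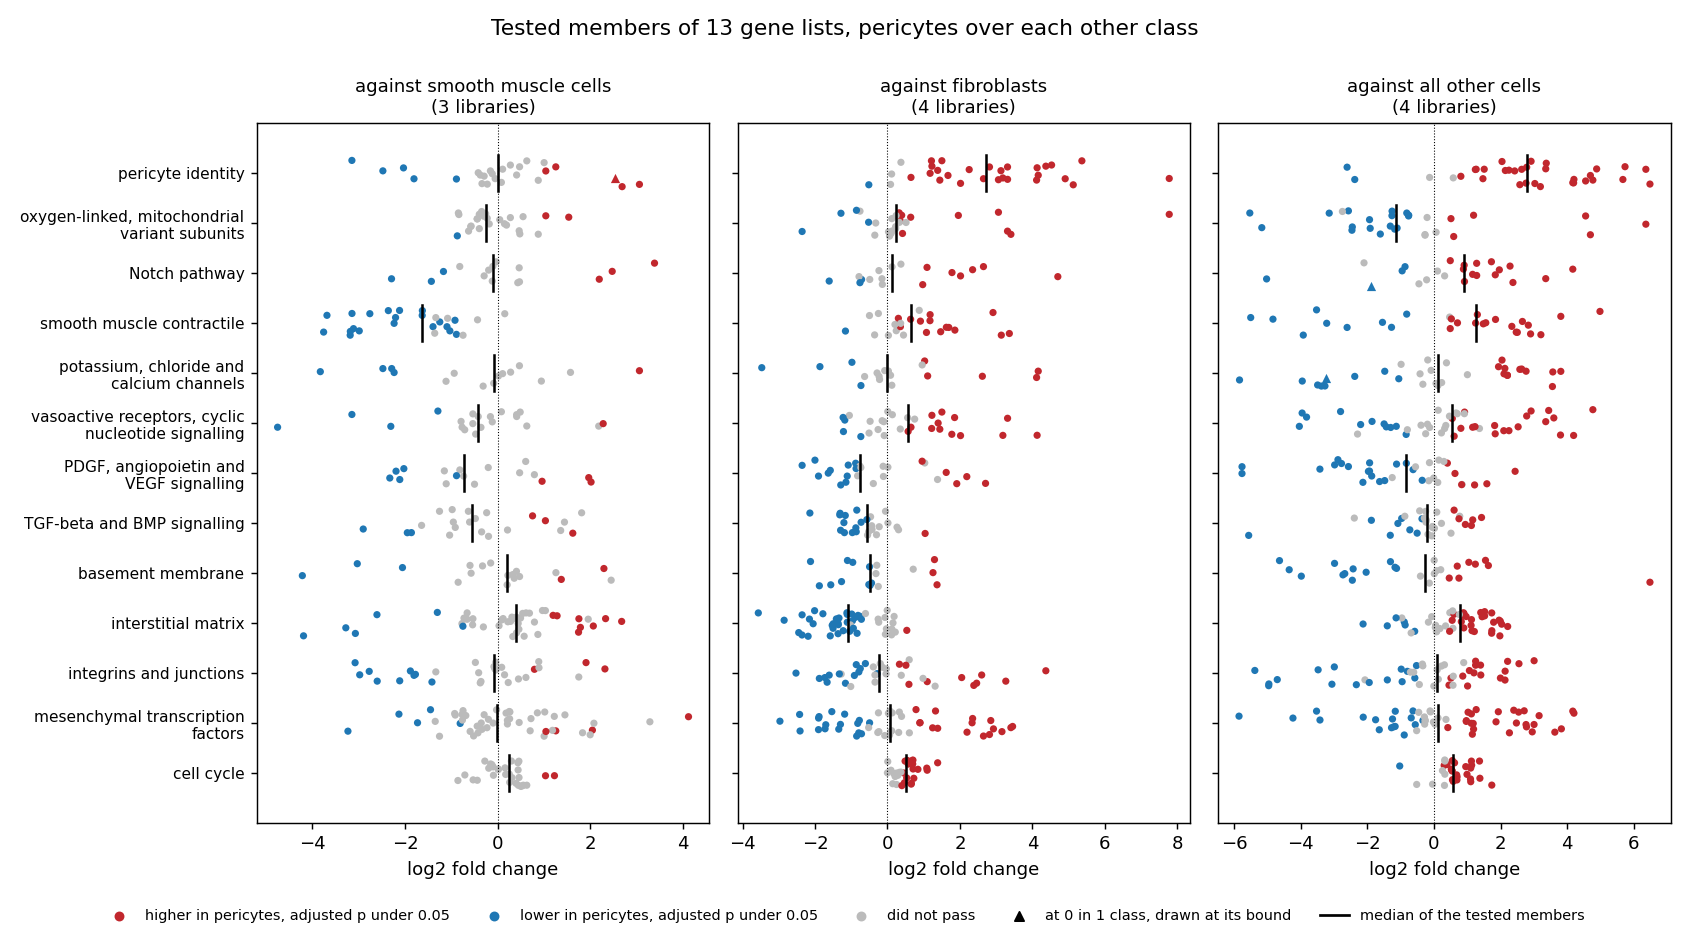
Log2 fold change (x axis, pericytes over the class named above each panel) of the tested members of 13 gene lists, 1 point per gene, with the list's median as a bar. Contractile genes lay below 0 against smooth muscle cells (20 of 26 lower) and above it against fibroblasts (15 of 25 higher), and the identity list had a median of 0.01, 2.73 and 2.78 in the 3 panels.

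Against the 20326 other kept cells of the same libraries, 29 of 33 identity genes, 14 of 23 Notch pathway genes and 22 of 30 cell cycle genes tested were higher in pericytes. Lower in pericytes were 17 of 17 cardiomyocyte markers, 15 of 18 endothelial markers and 17 of 28 oxygen-linked and mitochondrial genes. Of 13545 genes tested with edgeR, 2639 were higher in pericytes (19.5%) and 3357 lower (24.8%), and no setting tried moved these counts by over 1.5 times. The median over all genes tested was -0.07.

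Of 33 identity genes 29 were higher and 2 lower, with a median of 2.78. Vtn was sparse, at 0.69, 16.5, 11.2 and 26.97 CPM in pericytes, against 0.11, 0.07, 0.02 and 0.28 CPM in the other cells (6.48, SE 0.72, edgeR adjusted p = 8.76e-05). Higd1b was at 0.59, 5.62, 3.28 and 8.90 CPM in the other cells (6.36, SE 0.21, edgeR adjusted p = 1.71e-07), Colec11 at 8.04, 3.84, 2.44 and 6.91 CPM (5.74, SE 0.44) and Steap4 at 0.39, 0.77, 0.21 and 0.59 CPM (5.67, SE 0.30), in each case lower than in the pericytes of every library. Abcc9, which cardiomyocytes also use, was at 26.2, 39.4, 63.3 and 66.0 CPM in the other cells (2.58, SE 0.14). The 2 identity genes that were lower were the intermediate filament gene Des (-2.60, SE 0.16), abundant in muscle, and the potassium channel gene Kcnk3 (-2.37, SE 0.21). Related channel genes differed: Kcnj11, the cardiac Kir6.2 pore, had no UMI in the pericytes of any library, and Abcc8 was lower in pericytes (-3.49, SE 0.42).

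The isoforms of the respiratory chain went apart against these other cells, which held the 17 cardiomyocyte markers at a sum of 38240 to 61988 CPM. Among 28 oxygen-linked and mitochondrial genes 6 were higher in pericytes and 17 lower (median -1.14). The list did not go this way against the closer classes. Against fibroblasts 10 of 27 were higher and 4 lower (median 0.23), and against smooth muscle cells 2 of 25 were higher and 1 lower (median -0.26). The part of cardiomyocytes in these values was not tested. Cox4i2 was at 459, 731, 886 and 852 CPM in pericytes, against 28.6, 44.9, 12.4 and 21.0 CPM in the other cells (4.70, SE 0.34, edgeR adjusted p = 5.93e-06), whereas its ubiquitous isoform Cox4i1 was at 1329, 1458, 1773 and 1550 CPM, against 2492, 2966, 4090 and 3525 CPM (-1.25, SE 0.09). Ndufa4l2 (4.55, SE 0.29) and Ndufa4 (-2.45, SE 0.16) formed a like pair. Unlike the list, some of these genes kept their direction against the closer classes. Ndufa4 was called lower and Cox4i2 higher in pericytes against both fibroblasts and smooth muscle cells. The Cox4i2 call against smooth muscle cells did not hold in every setting, as given above. Ndufa4l2 was called higher against fibroblasts and did not pass against smooth muscle cells. The muscle isoforms Cox6a2 (-5.52, SE 0.21) and Cox7a1 (-5.16, SE 0.19), the mitophagy gene Bnip3 (-3.14, SE 0.29) and the growth factor gene Vegfa (-2.57, SE 0.28) were lower. Epas1 was higher (1.19, SE 0.29) in 3 of 4 libraries, the exception being the SAN library with 22.7 CPM in pericytes and 23.6 CPM in other cells, and lost the call without the AVN/His library (edgeR adjusted p = 0.0549). The hypoxia response core (ACGTG or GCGTG, both strands) stood in the promoters of 20 of 21 matched genes of this list (95.2%), against 43.8% of all promoters. Here too genes stand beside single promoters, so the shares are not of like units. The list has 28 genes, and Cox4i2, Ndufa4l2, Cox4i1, Cox6a2 and Epas1 were not among those matched.

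Fabp7, a fatty acid-binding protein gene known from radial glia, was at 519, 450, 806 and 558 CPM in pericytes, against 13.5, 5.53, 5.52 and 9.29 CPM in other cells (5.99, SE 0.28, edgeR adjusted p = 5.59e-07). Fabp7 did not pass against smooth muscle cells (1.73, SE 0.50, edgeR adjusted p = 0.0660). It passed there without the SAN library (1.13, edgeR adjusted p = 1.23e-03) or the AVN/His library (2.46, edgeR adjusted p = 3.20e-03), or without pericytes that held a Tcf21 UMI (2.19, edgeR adjusted p = 0.0353). It passed in further settings too, among them 3 or more mural genes (2.08, edgeR adjusted p = 0.0472). The phospholipase gene Pla1a was at 72.3, 103, 104 and 108 CPM, against 2.19, 3.66, 3.34 and 5.10 CPM (4.61, SE 0.16). Cygb (4.47, SE 0.27), Cpa1 (5.64, SE 0.33) and the surface glycoprotein gene Thy1 (3.71, SE 0.18) were higher in 4 of 4 libraries.

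Of 23 Notch pathway genes 14 were higher and 4 lower, among the higher Heyl (4.17, SE 0.27), Dlk1 (2.37, SE 0.46), Nrarp (2.29, SE 0.12) and the receptor Notch2 (1.28, SE 0.18). The ligand Jag2 had no UMI in pericytes and was at least 3.67-fold lower against a floor of 3 counts. Of 55 transcription factors 26 were higher, led by Foxs1 (4.20, SE 0.30), Heyl, Tbx2 (3.83, SE 0.34) and Foxf1 (3.63, SE 0.64), and 17 were lower, led by the cardiac factor Nkx2-5 (-5.85, SE 0.28). Of 45 vasoactive and cyclic nucleotide genes 19 were higher, led by Rgs4 (4.77, SE 0.62), P2ry14 (4.19, SE 0.38), Gucy1a2 (3.80, SE 0.57) and the prostacyclin receptor gene Ptgir (3.60, SE 0.43), and 11 were lower, led by the sphingosine receptor S1pr1 (-4.04, SE 0.26).

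Of 31 channel genes 12 were higher, led by Kcnmb1 (3.81, SE 0.69) and Ano1 (3.57, SE 0.59), and 9 lower, with the L-type calcium channel gene Cacna1c (-3.95, SE 0.22). Of 46 interstitial matrix genes 26 were higher and 6 lower, and of 15 fibroblast markers 7 were higher and 3 lower. Those 2 lists moved with the Tcf21 split, in the direction that the split itself favors. Without pericytes that held a Tcf21 UMI, 16 matrix genes were higher and 11 lower, and 2 fibroblast markers were higher and 8 lower. Over all genes that setting gave 1988 higher and 2730 lower. The collagen IV genes Col4a1 (1.64, SE 0.12) and Col4a2 (1.55, SE 0.13) were higher, with 8 of 26 basement membrane genes higher and 12 lower. In the platelet-derived growth factor, angiopoietin and VEGF list 6 of 33 were higher and 18 lower, led by the apelin gene Apln (-5.76, SE 0.68) and its receptor Aplnr (-5.76, SE 0.48), both of endothelium. All 17 cardiomyocyte markers were lower (median -5.43), and 15 of 18 endothelial markers were lower and 1, Esam, higher (0.75, SE 0.13). Of 30 TGF-β and BMP genes 6 were higher and 8 lower, of 45 integrin and junction genes 16 and 15, of 27 contractile genes 17 and 9, and of 30 cell cycle genes 22 and 1.

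Each region had 1 library, so the levels between regions have no replicate check and no test, and a difference of region cannot be told apart from one of library or embryo. A gene was named when its lowest CPM in the region was at least 2 times the highest elsewhere, with 95% Poisson intervals apart and a level above that of the other cells of the library. By this rule 104 genes were higher in the SAN region, 8 in the AVN/His region, 10 in the BB/PF left region, 2 in the BB/PF right region and 3 in both BB/PF regions, and 70 were lower in the SAN region than in all the others, a direction added after the data were seen. Xist, expressed from the inactive X chromosome of females, was at 127, 0, 1324 and 432 CPM in the pericytes of the 4 libraries and at 171, 0.48, 939 and 248 CPM in the other cells, so region and embryo sex cannot be told apart.

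In the SAN region Id4, an inhibitor of basic helix-loop-helix factors, was at 66.8 CPM in pericytes, against 6.77, 5.08 and 8.37 CPM in the other regions. Moxd1 was at 26.9 CPM, against 2.26, 0 and 0.47 CPM, Rasgef1b at 33.1 CPM, against 3.01, 0 and 3.26 CPM, and the G protein regulator Rgs16 at 36.5 CPM, against 3.76, 0 and 5.58 CPM. The neurotrophin receptor gene Ntrk3 was at 28.9 CPM, against 4.51, 1.02 and 1.86 CPM. Other cells of the SAN library also held Moxd1 at 25.4 CPM and Rasgef1b at 24.7 CPM, close to the pericytes, and Id4 at 17.2 CPM. The 104 genes also held immediate-early and heat shock genes, which are named here after their values were seen: Fos, Egr1, Hspa1a, Hspa1b, Junb, Fosb, Atf3, Zfp36, Nr4a1 and Socs3. Fos was at 1089 CPM in SAN pericytes, against 213, 267 and 346 CPM in the pericytes of the other regions, and at 530 CPM in the other cells of the SAN library, against 229, 65.2 and 119 CPM in those of the other libraries. Hspa1a was at 779 CPM, against 167, 104 and 234 CPM in pericytes, and at 211 CPM, against 106, 29.8 and 70.1 CPM in the other cells. Both genes were thus highest in the SAN library in and outside the pericytes, and their part in the SAN results was not tested.

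Lower in the SAN pericytes were genes that the rest of the pericytes shared. Higd1b was at 53.0 CPM in the SAN region, against 482, 514 and 582 CPM elsewhere, Vtn at 0.69 CPM, against 16.5, 11.2 and 26.97 CPM, and the gap junction gene Gja4 at 5.51 CPM, against 41.3, 53.8 and 53.0 CPM. Reln, the secreted glycoprotein reelin, was at 2.07 CPM, against 31.6, 27.4 and 34.4 CPM, and the angiotensin receptor gene Agtr1a at 1.38 CPM, against 18.0, 29.4 and 23.3 CPM. A Higd1b UMI was held by 18.5% of SAN pericytes (95% Clopper-Pearson interval 12.7 to 25.4), against 68.1% in the AVN/His region, 80.3% in the BB/PF left region and 73.9% in the BB/PF right region. With every cell thinned to 3000 UMIs the shares were 8.92%, against 58.3%, 57.3% and 65.1%, so depth was matched there.

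In the AVN/His region the neuropeptide gene Npy was at 15.8 CPM in pericytes, against 0, 0 and 0.47 CPM in the SAN, BB/PF left and BB/PF right regions, but at 15.5 CPM in the other AVN/His cells. The interferon-linked genes Ifi27l2a (82.7 CPM, against 4.82, 4.06 and 4.19 CPM) and Xaf1 (19.5 CPM, against 1.38, 4.06 and 2.79 CPM) stood out in the same library. The other AVN/His cells held Ifi27l2a at 55.8 CPM, against 13.6, 2.21 and 7.16 CPM in the other cells of the other libraries, and Xaf1 at 8.98 CPM, against 3.15, 2.84 and 5.06 CPM. In the BB/PF left region the calcium-binding gene Calb2 was at 17.3 CPM, against 0, 2.26 and 4.19 CPM in the SAN, AVN/His and BB/PF right regions, and Cpa1 at 792 CPM, against 73.7, 209 and 374 CPM. The red cell gene Alas2 was higher there too (33.5 CPM, against 10.3, 2.26 and 14.4 CPM), beside an erythroid marker sum of 14739 CPM in those pericytes, against 5007, 2583 and 10425 CPM.

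**Figure D3:**
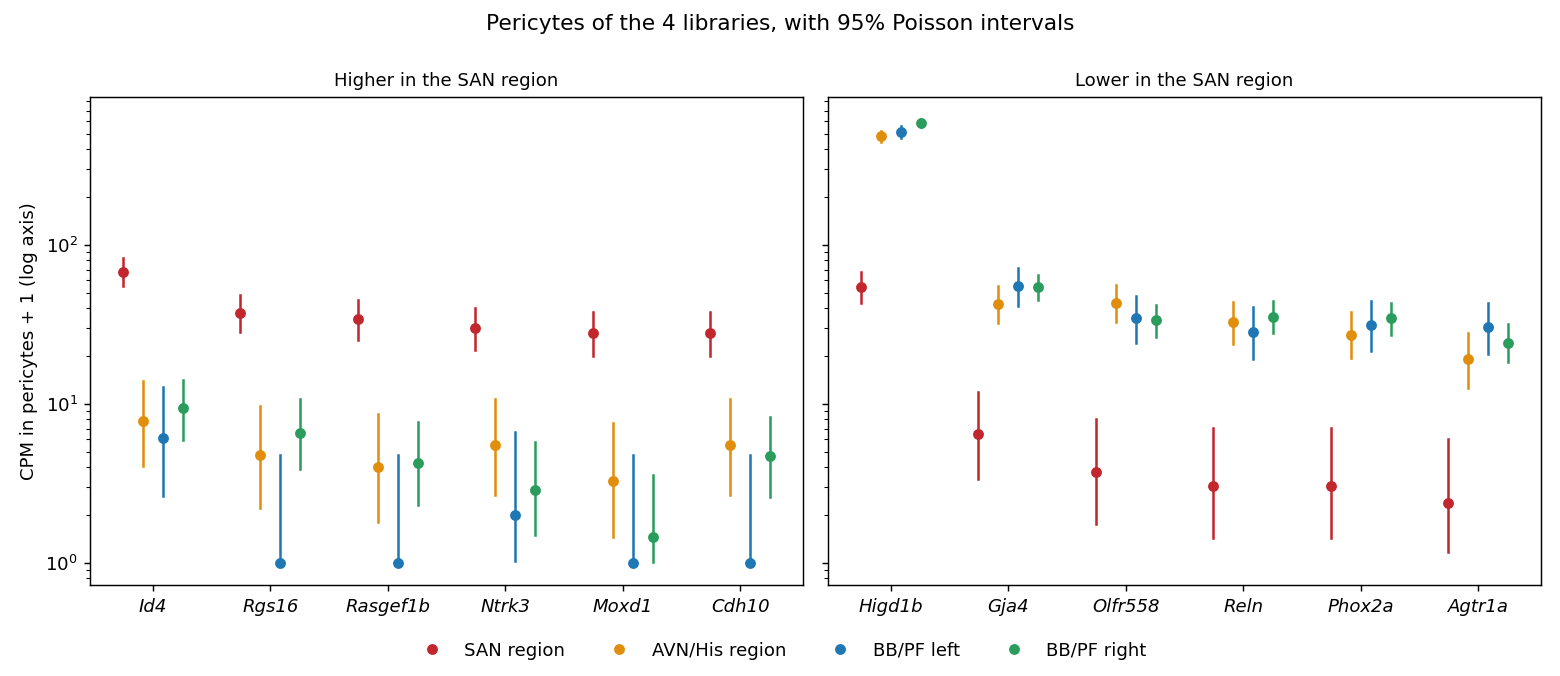
Level (CPM + 1, log axis) of 12 genes in the pericytes of each library with 95% Poisson intervals. The SAN region stood above the other 3 in the left panel (Id4 at 66.8 CPM, against 5.08 to 8.37 CPM) and below them in the right panel (Higd1b at 53.0 CPM, against 482 to 582 CPM).

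Pericytes differed among themselves along a fibroblast and a smooth muscle direction, described here with no test. The 328 pericytes with a Tcf21 UMI held Col1a1 at 1332 CPM, Dcn at 1039 CPM and Higd1b at 225 CPM, and the 381 without one held 371, 293 and 619 CPM. Their median depths were 8403.5 and 6855 UMIs, so that a Tcf21 UMI was also more often found in deeper cells. The SAN library stayed apart on both sides of this split: among pericytes without a Tcf21 UMI, Higd1b was at 87.3 CPM in the SAN region (47 cells), against 722, 593 and 771 CPM in the AVN/His, BB/PF left and BB/PF right regions, and Col1a1 at 1611 CPM, against 202, 65.8 and 187 CPM.

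**Figure D4:**
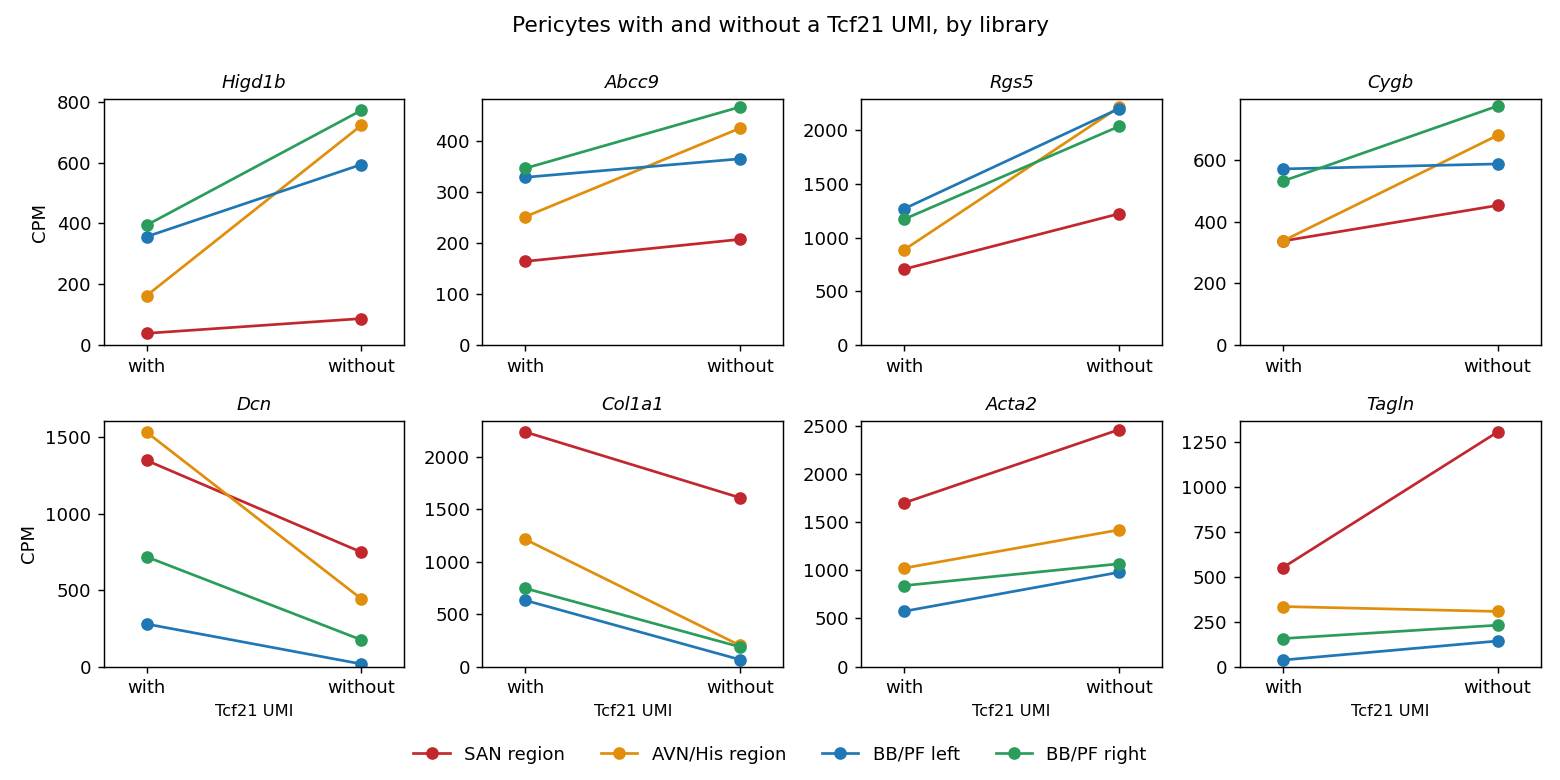
Level (CPM, linear axis from 0) of 8 genes in pericytes with and without a Tcf21 UMI, 1 line per library. Higd1b was lower in the cells with a Tcf21 UMI in each library and stayed lowest in the SAN region in the cells without one (87.3 CPM, against 593 to 771 CPM).

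A Myh11 UMI was held by 53 pericytes (7.48%), against 0.37% of macrophages. These 53 cells held Acta2 at 3830 CPM and Tagln at 1168 CPM, and the 656 pericytes without one held 1021 and 280 CPM. Over all libraries Cygb was lower in the cells with a Myh11 UMI (248 CPM, against 570 CPM), as were Abcc9 (233 CPM, against 337 CPM) and Ebf1 (582 CPM, against 704 CPM). Cygb and Abcc9 were lower in each library too, whereas Ebf1 was higher with the UMI in the BB/PF left region (698 CPM, against 651 CPM). With the libraries pooled, Higd1b (569 CPM, against 406 CPM), Ndufa4l2 (2120 CPM, against 1392 CPM), Cox4i2 (1096 CPM, against 703 CPM) and Fabp7 (1224 CPM, against 510 CPM) were higher. In the SAN region Higd1b, Ndufa4l2, Cox4i2 and Fabp7 were lower with the UMI, and Higd1b was lower in the AVN/His region too (475 CPM, against 483 CPM). In each library Acta2 was higher with a Myh11 UMI: 4600 CPM against 1803 CPM in the SAN region, 3694 CPM against 968 CPM in the AVN/His region, 1396 CPM against 803 CPM in the BB/PF left region and 4505 CPM against 599 CPM in the BB/PF right region, from 7, 14, 6 and 26 cells with the UMI.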

How the data were processed

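Single-cell 3' libraries (10x Genomics) of the 4 regions were deposited as matrices of UMI counts, which the authors made from the reads with Cell Ranger at default settings and the mm10 genome; its version and annotation are not given in the sources used here. The matrices held 27998 genes. Barcodes with at least 500 genes were kept, and cells were assigned to classes by marker gates. The members, gene lists and gates were chosen with earlier results of these data known.

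UMI counts were summed per library and class, with at least 10 cells per sum, and compared with edgeR 4.0.16 in R 4.3.3 (TMM, filterByExpr, glmQLFit and glmQLFTest, library as a block, Benjamini-Hochberg over all genes tested). Fold changes are log2, pericytes over the other class, and a call is an adjusted p under 0.05. The 28 genes of the gates were left out of the tests. The block was used because both sums come from 1 library: their deviations from the class means correlated with r of 0.25 to 0.65 in each library. Intervals are exact 95% Poisson (CPM) or Clopper-Pearson (shares) and cover counting error only. The fits were also run on simulated data in which all libraries shared the same mean profile, apart from genes changed on purpose. That run held no library effect, so it cannot give the error rate in these libraries.

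Genes named with values were, per comparison, in each direction the 10 genes of lowest p with a mean of 20 CPM or more, and the 4 largest changes in each direction of each list. Outside this rule, Higd1b, Ndufa4l2, Heyl, Foxs1, Acta2, Mylk, Myl6, Fabp7, Col4a1 and Col4a2 against smooth muscle cells, Foxs1, Col1a1, Acta2, Tagln, Hey1, Mki67 and Top2a against fibroblasts, and Abcc9, Cox4i1, Ndufa4, Cygb, Cpa1 and Notch2 against all other cells were chosen after their values were seen. Doublets were scored with Scrublet in scanpy 1.11.5 and left out only as an alternative. Promoters are from RefSeq (GRCm38.p6). Alternatives varied the block, tool (DESeq2 1.42.0), size factors, filter, libraries and each limit of the gate. Some results are not reported here.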

Additional observations from a re-analysis of the deposited data

Results flagged for a closer look

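The summed CPM of each list in pericytes was divided by that of the other class in each of the 4 libraries, and in 4 of 40 lists and comparisons 1 library stood farther from its neighbor than Dixon's 95% critical value for 4 samples allows. Chance gives about 1 in 20 such results. The log2 ratio of the pericyte identity list against fibroblasts was 1.39 in the SAN region and 2.36 to 2.53 in the other libraries. For the channel list, the SAN region had 0.47 against fibroblasts (1.08 to 1.19 in the other libraries) and 0.22 against all other cells (1.03 to 1.17). The fibroblast markers against all other cells had 0.29 in the AVN/His region and 1.10 to 1.25 in the other libraries.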

How the results depend on the processing

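Against all other cells, no alternative moved the 2639 genes higher or the 3357 lower in pericytes by over 1.5 times. Against smooth muscle cells, where 199 were higher and 345 lower, the higher count was 110 with DESeq2, 526 without a filter on low counts and 131 without pericytes that held a Tcf21 UMI (217 lower), the last chosen after seeing the data. Leaving out 1 library gave 82 to 363 higher and 178 to 451 lower: 363 higher without the SAN library, 82 and 178 without BB/PF right, and 221 lower without AVN/His. Against fibroblasts, where 989 were higher and 1107 lower, leaving out 1 library gave 539 to 1131 higher and 639 to 1160 lower (539 and 669 without AVN/His, 575 and 639 without BB/PF right), and 737 were lower without pericytes or fibroblasts that held an endothelial UMI. Without the library block 126 were higher against smooth muscle cells, and 648 were higher and 684 lower against fibroblasts; the block moved no other count by over 1.5 times. The cause was not tested. Of 158 named gene results, 149 were called. Over their 2664 alternatives 67 lost the call in the same direction, 21 gained it and 3 changed sign. Of the losses 20 were without the library block and 7 in DESeq2, and these are named above only in part. Ndufa4l2 against smooth muscle cells, not called, had a log2 fold change of -0.17 without the block and of -0.38 to 0.79 when 1 library was left out (-0.38 without the SAN library), and Hey1 against fibroblasts, not called, had -0.61 without pericytes that held a Tcf21 UMI. The pericytes numbered 381 without those that held a Tcf21 UMI, 406 without those that held an endothelial UMI, 509 with 3 or more mural genes and 547 with at least 2 Kcnj8 UMIs. With 2 or 3 residual degrees of freedom, fewer where a library was left out, and 92 smooth muscle cells, a gene that missed the threshold is not shown to be alike.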

Other observations

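Phox2a, a homeobox gene of autonomic neurons, was at 2.07, 26.3, 30.5 and 33.5 CPM in the pericytes of the SAN, AVN/His, BB/PF left and BB/PF right libraries, against 2.19, 0.37, 0.15 and 0.30 CPM in all other cells (log2 fold change 5.25, SE 0.99, edgeR adjusted p = 2.12e-03, higher in 3 of 4 libraries). Olfr558, an odorant receptor gene, was at 2.75, 42.1, 33.5 and 32.6 CPM in pericytes, against 0.28, 1.62, 0.42 and 1.43 CPM (4.67, SE 0.39, edgeR adjusted p = 1.52e-05). Both were lowest in the SAN region, where Phox2a did not stand above the other cells. Both genes were chosen after their values were seen.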
